A study of Mus musculus with 6 samples.

Results

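Spermine synthase (Sms), its near-identical copy Gm14680 and 8 other enzymes and regulators of polyamine metabolism (Srm, Odc1, Amd1, Sat1, Smox, Paox, Azin1 and Oaz1) were followed by gene symbol in counts of sorted early mouse mesoderm, 10 of 24975 genes in the table. Sms and Gm14680 were chosen by the result of these same libraries, since both had passed as lower with Gli3R. Their difference between the groups is therefore given as a description, with no test, while the other 8 were taken for their role in the pathway and were tested.

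The Gli3R group was Mesp1-Cre/+;R26-Gli3R-IRES-Venus/+, in which a repressor form of the Hedgehog factor Gli3 is expressed together with the fluorescent protein Venus from the R26 locus. The control group was Mesp1-Cre/+;R26-tdTomato/+, which carries a red reporter and no Gli3R. In both groups the recombinase Cre was expressed from Mesp1, which is active in nascent mesoderm, so that transgene and reporter are switched on in descendants of Mesp1-expressing cells. Embryos were taken at embryonic day 7.5 and pooled with littermates, and 1000 sorted cells went into each of 3 Gli3R and 3 control libraries. Libraries with the same replicate number came from the same litter. Per the file headers, the Gli3R cells were sorted by Venus and the control cells by tdTomato, so an effect of Gli3R cannot be told apart from one of the reporter or of its gate. The number of embryos per pool is not given in the sources used here.

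Polyamines are small positively charged molecules that bind nucleic acids and are needed for growth. Ornithine decarboxylase (Odc1) makes putrescine, spermidine synthase (Srm) turns putrescine into spermidine, and spermine synthase (Sms) turns spermidine into spermine, both with an aminopropyl group from S-adenosylmethionine that has been decarboxylated by Amd1. Spermidine is also the donor for hypusine, a modified amino acid of the translation factor eIF5A. Much of the control of these enzymes acts on translation and protein stability, which mRNA counts do not show. In humans, loss of SMS causes Snyder-Robinson syndrome, an X-linked intellectual disability.

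The coding sequence of Sms cannot be told apart from that of Gm14680. The RefSeq gene table lists the Entrez gene ID of Gm14680 (671878) as Sms-ps, a pseudogene on chromosome X, where Sms (20603) itself lies. In GENCODE M21 the copy is 1101 bases long and all 1101 were identical to the Sms transcript, over the whole coding part and the stop codon. RefSeq gives the copy a longer span, chrX:62775128-62776637 in GRCm38.p6, and the rest of that span was not compared. Every 50-base window of the copy occurred in the Sms transcript, and 28.7% of the 50-base windows of the 3717-base Sms transcript occurred in the copy. The first 150 coding bases are shown because they read the same in both, with the start codon in capitals.
Sms and Sms-ps: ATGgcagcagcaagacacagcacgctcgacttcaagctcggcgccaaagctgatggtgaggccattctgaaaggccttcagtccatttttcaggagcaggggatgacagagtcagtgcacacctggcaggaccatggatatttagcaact

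Another 2 members have a near-identical copy. Amd1 has the copy Amd2 on chromosome 10, which is annotated as protein-coding and differed at 1 of 1002 coding bases. Oaz1 has the pseudogene Oaz1-ps on chromosome 17, which differed at 1 of 678 aligned coding bases. These differences are substitutions. Gaps are not counted in them, and the whole alignment held 2 runs of gaps for the Amd1 pair and 1 for the Oaz1 pair. The stretches of 101 coding bases around these differences are shown 5′ to 3′ from GENCODE M21, with the differing base in capitals. Counted from 1 at the first base shown, the difference was G51C in both pairs, the gene's base first.
Amd1: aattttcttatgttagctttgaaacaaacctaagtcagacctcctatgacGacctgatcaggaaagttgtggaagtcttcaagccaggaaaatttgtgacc
Amd2: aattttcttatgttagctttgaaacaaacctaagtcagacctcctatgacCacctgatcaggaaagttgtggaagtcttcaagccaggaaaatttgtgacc
Oaz1: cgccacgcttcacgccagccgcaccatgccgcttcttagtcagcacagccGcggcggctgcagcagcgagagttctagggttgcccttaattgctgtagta
Oaz1-ps: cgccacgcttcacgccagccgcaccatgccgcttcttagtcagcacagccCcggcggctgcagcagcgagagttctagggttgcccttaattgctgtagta

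The counts of each gene and its copy moved together. Sms had 883, 432 and 390 reads in Gli3R replicates 1, 2 and 3 and 724, 1360 and 1011 in control replicates 1, 2 and 3, where Gm14680 had 840, 423 and 358 in the Gli3R and 705, 1403 and 944 in the control libraries. Gm14680 thus held 48.7% ± 0.81 of the pair's reads in Gli3R and 49.5% ± 1.25 in control libraries (SD, n = 3 each). This share was not used to choose the genes, and was lower in Gli3R in all 3 litters, by a mean difference of -0.77 percentage points (two-sided exact permutation test, p = 0.5 between the groups and 0.25 within litters). These designs cannot go below 0.1 and 0.25, so neither test could pass. Within litters 1, 2 and 3 the differences were -0.58, -1.30 and -0.43 percentage points. Amd2 held 48.8% to 49.6% of its pair and Oaz1-ps 53.4% to 54.5% of its pair over the 6 libraries. How reads that match several places were counted is not given in the sources used here. How many of the Sms reads fell in the part shared with Gm14680 was not measured. Sms and Gm14680 are therefore not read as independent measurements.

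**Figure D1:**
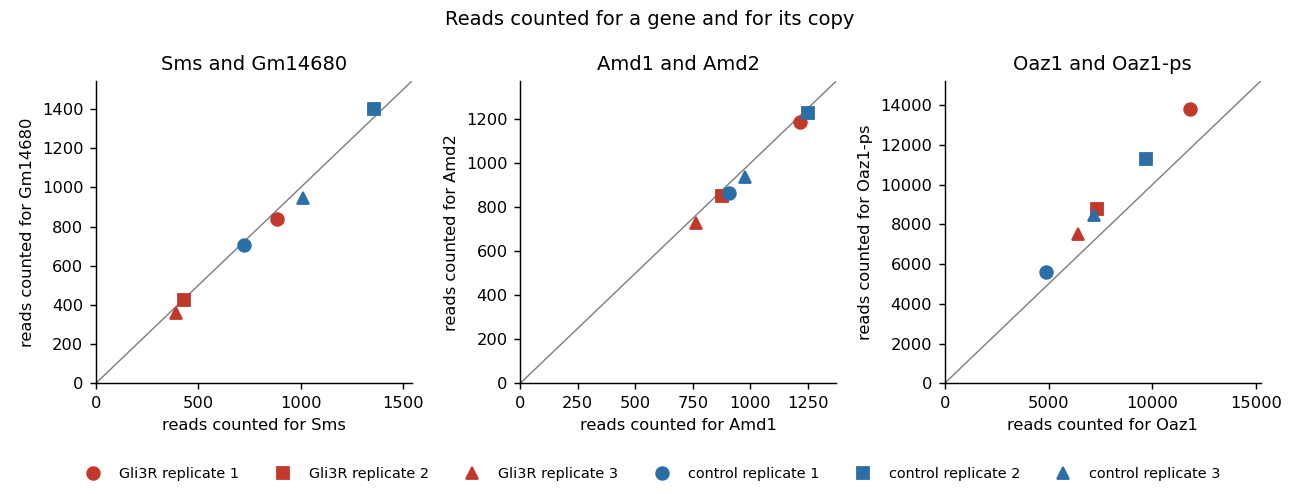
Reads counted for a gene (horizontal axis) and for its copy (vertical axis) in each library, for Sms and Gm14680, Amd1 and Amd2, and Oaz1 and Oaz1-ps. Red points are Gli3R and blue points control libraries, and the grey line marks equal counts. The pairs of Sms and Amd1 lie close to the line and Oaz1-ps lies above it, at 53.4% to 54.5% of its pair.

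Library totals ran from 6592417 to 12635151 counts in the Gli3R group and from 5481190 to 10435790 in the control group. Control replicate 1, the shallowest, stood apart on the first principal component (35% of the variance) at 39.9, with the other libraries between -19.2 and 2.25. Gli3, part of which the transgene carries, stood at 43.6, 39.0 and 50.9 CPM (counts relative to library size, after TMM scaling) in Gli3R libraries and 25.8, 29.5 and 34.4 CPM in control libraries. The Hedgehog target Ptch1 stood at 0.62, 1.03 and 0.77 CPM in Gli3R libraries and 2.04, 3.66 and 2.92 CPM in control libraries. Counts of Gli3 do not separate the transgene from the endogenous gene. The 11 mesoderm markers listed were all expressed enough to be tested, and summed to 449 to 567 CPM in Gli3R and 406 to 459 CPM in control libraries. Of the 11, 8 had a log2 fold change below 0 (median -0.48, range -1.93 for T to 0.68 for Bmp4). Of the same 11, 0 passed (quasi-likelihood test of edgeR, Benjamini-Hochberg), with 6 at an unadjusted p under 0.05. Of all 11913 tested genes, 6178 were below 0, and by the same test 0.134% passed and 6.85% were at an unadjusted p under 0.05. In bulk samples, fewer cells of a type and less RNA per cell cannot be told apart.

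Spermine synthase transcripts in Gli3R mesoderm stood far below their level in control mesoderm. Sms had 68.6, 55.4 and 59.8 CPM in Gli3R replicates 1, 2 and 3, against 134, 131 and 128 CPM in control replicates 1, 2 and 3. The groups were far apart, and the control libraries were nearly level. Means were 61.3 ± 6.72 CPM in Gli3R and 131 ± 3.06 CPM in control libraries (SD, n = 3 each), a log2 fold change of -1.09 ± 0.10 (SE). Litters 1, 2 and 3 gave log2 ratios of -0.97, -1.24 and -1.10. With the reads of Sms and Gm14680 added up as 1 gene, the log2 fold change was -1.12 ± 0.09. Among all tested genes, 0.797% had a log2 fold change of -1 or below, and 0.109% were called lower (quasi-likelihood test of edgeR, Benjamini-Hochberg adjusted p under 0.05). These shares are background for how Sms was chosen, and nothing is read from them.

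**Figure D2:**
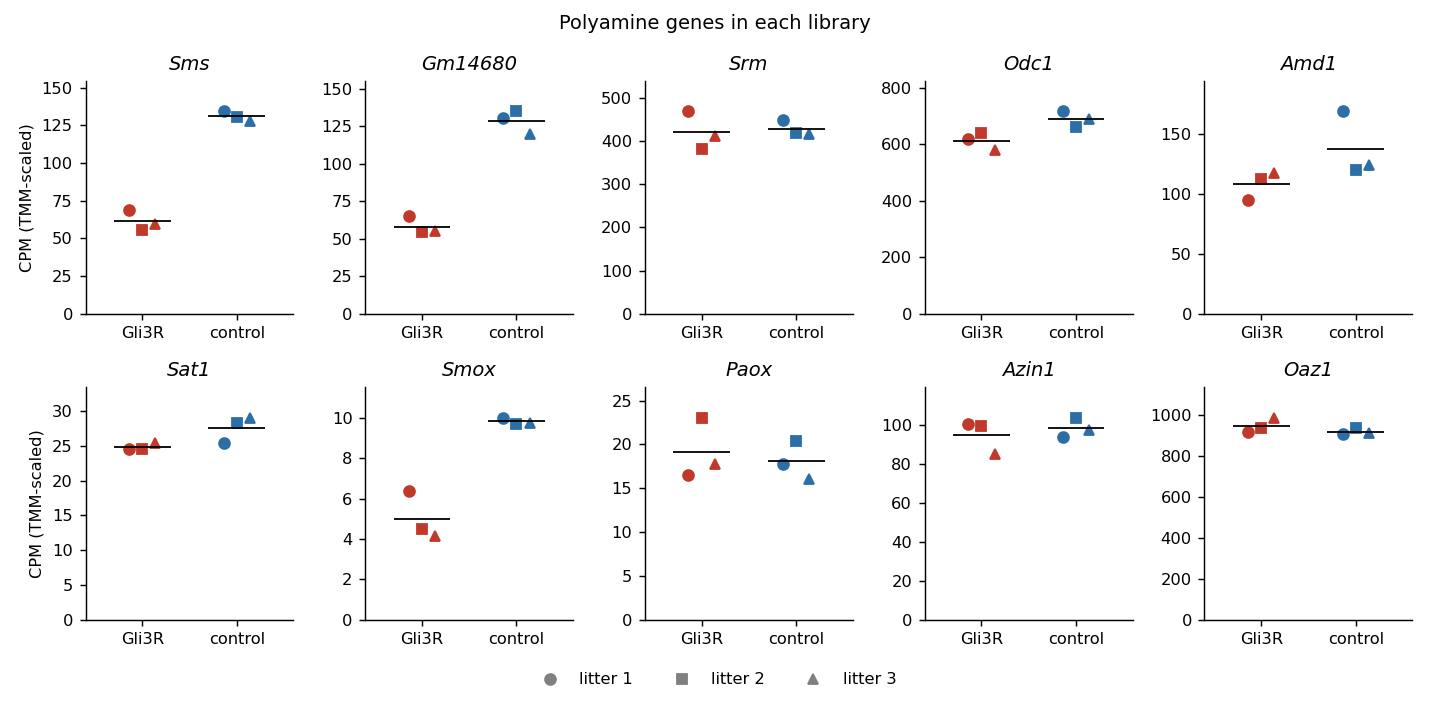
Level of each of the 10 genes in CPM (vertical axes, each starting at 0) in Gli3R (red) and control (blue) libraries, with the shape of a point giving the litter and the line the group mean. Sms and Gm14680 stand apart between the groups, Smox lies at 4.14 to 6.37 CPM in Gli3R against 9.72 to 10.02 CPM in control libraries, and Srm, Paox, Azin1 and Oaz1 overlap.

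Spermidine synthase overlapped between the groups. Srm, which makes the substrate of Sms, had 469, 383 and 412 CPM in Gli3R libraries and 449.7, 419.9 and 418 CPM in control libraries. The control values lie inside the range of the Gli3R values. Its log2 fold change was -0.03 ± 0.09 (SE), with a 95% interval of -0.23 to 0.18 and an adjusted p of 0.996 (quasi-likelihood test of edgeR, Benjamini-Hochberg over 11913 genes). The reads of Sms per read of Srm, a ratio that no scaling between libraries changes, were 0.146, 0.145 and 0.145 in Gli3R replicates 1, 2 and 3 and 0.299, 0.312 and 0.307 in control replicates 1, 2 and 3. The ratio was steady within each group, and in Gli3R libraries its mean was 0.476 times that in control libraries.

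The decarboxylases lay slightly lower with Gli3R and did not pass. Odc1, the first and rate-limiting enzyme of the pathway, had 618, 638 and 580.4 CPM in Gli3R libraries and 716, 661 and 690.5 CPM in control libraries. All Gli3R values were below all control values, by a small margin. Its log2 fold change was -0.17 ± 0.07 (95% interval -0.34 to -0.01; quasi-likelihood test of edgeR, Benjamini-Hochberg adjusted p = 0.717). Amd1 had 94.6, 112 and 117 CPM in Gli3R libraries and 169, 120.2 and 124 CPM in control libraries. The gap came mostly from control replicate 1. The log2 fold change of Amd1 was -0.35 ± 0.14 with that library and -0.18 without it (quasi-likelihood test of edgeR, Benjamini-Hochberg adjusted p = 0.694 and 0.715). Within litters 2 and 3 its log2 ratios were -0.10 and -0.08.

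Of the genes that break polyamines down, the spermine oxidase gene Smox lay closest to Sms. Smox oxidises spermine, the product of Sms, back to spermidine. It had 6.37, 4.49 and 4.14 CPM in Gli3R libraries, against 10.02, 9.72 and 9.77 CPM in control libraries. The groups did not overlap, though Smox rests on 27 to 101 reads a library. Its log2 fold change was -0.95 ± 0.22 (SE), with a 95% interval of -1.44 to -0.45, and litters 1, 2 and 3 gave log2 ratios of -0.65, -1.12 and -1.24. It missed the threshold (quasi-likelihood test of edgeR, Benjamini-Hochberg adjusted p = 0.226, unadjusted p = 0.00166), nor in any alternative run (adjusted p from 0.0873 to 0.702). Sms had 10.8, 12.3 and 14.4 reads per read of Smox in Gli3R libraries and 13.4, 13.5 and 13.1 in control libraries, so the ratio of this pair overlapped between the groups.

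The other catabolic genes did not pass. Sat1, the acetyltransferase that marks spermidine and spermine for export or oxidation and which lies on chromosome X like Sms, had 24.5, 24.5 and 25.3 CPM in Gli3R libraries and 25.4, 28.2 and 29.05 CPM in control libraries. Gli3R replicate 3 nearly reached control replicate 1. Its log2 fold change was -0.16 ± 0.12 (95% interval -0.42 to 0.11; quasi-likelihood test of edgeR, adjusted p = 0.939). Paox, the oxidase of acetylated polyamines, had 16.5, 23.1 and 17.8 CPM in Gli3R libraries and 17.8, 20.4 and 16.1 CPM in control libraries. The groups overlapped (log2 fold change 0.07 ± 0.17; quasi-likelihood test of edgeR, adjusted p = 0.996).

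The regulators of ornithine decarboxylase did not pass. Oaz1 encodes antizyme, which is made in response to polyamines and sends ornithine decarboxylase to the proteasome. It had 919, 939 and 988 CPM in Gli3R libraries and 906, 935 and 914 CPM in control libraries. Azin1 encodes an inactive relative of the decarboxylase that binds antizyme. It had 100.5, 99.6 and 85.2 CPM in Gli3R libraries and 94.1, 104 and 97.2 CPM in control libraries. Both overlapped between the groups, with log2 fold changes of 0.05 ± 0.07 for Oaz1 (95% interval -0.11 to 0.20) and -0.05 ± 0.10 for Azin1 (95% interval -0.26 to 0.16) (quasi-likelihood test of edgeR, adjusted p = 0.996 each).

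Counted together, 0 of the 8 members chosen for their role rose and 0 fell, where 0.134% of all tested genes passed, 0.0252% as higher and 0.109% as lower (quasi-likelihood test of edgeR, Benjamini-Hochberg adjusted p under 0.05). At an unadjusted p under 0.05 there were 3 of 8 (Odc1, Amd1 and Smox), against 6.85% of all tested genes. DESeq2 also called 0 of 8, with 2 at an unadjusted p under 0.05, where it called 0.789% of all genes it tested, and 5.04% at the unadjusted threshold. With litter as a block edgeR called 0 of 8, with 1 at an unadjusted p under 0.05, where it called 0.227% of all genes, and 8.73% at the unadjusted threshold. The Gli3R libraries of 4 members (Odc1, Amd1, Sat1 and Smox) lay wholly below the control libraries, as did 6.33% of all tested genes. The median log2 fold change of the 8 was -0.10, against -0.01 over all tested genes, and 6 of the 8 lay within 0.20 of 0, as did 67.7% of all tested genes. The 95% interval of Smox reached down to -1.44, and that of Amd1, the next lowest, to -0.66. The difference of Sms from each of the 8 was not tested, since Sms was chosen for its fall.

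**Figure D3:**
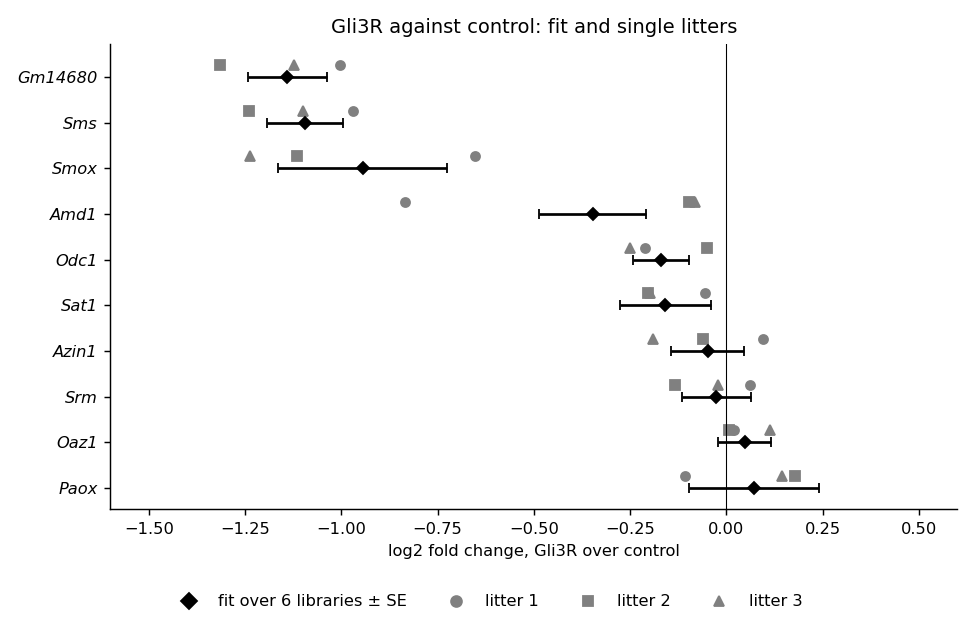
Log2 fold change of Gli3R over control (horizontal axis) for the 10 genes, as fitted over 6 libraries with its SE (black) and as the ratio within each litter (grey). Gm14680, Sms and Smox lie near -1, Amd1 at -0.35 with litter 1 far from the others, and the rest between -0.17 and 0.07.

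Set per kilobase of the longest protein-coding GENCODE M21 transcript, the antizyme gene Oaz1 had the highest level of the pathway, at 886 ± 33.1 CPM per kilobase in Gli3R and 857 ± 13.9 in control libraries. Srm (315 ± 32.8 in Gli3R and 321 ± 13.4 in control libraries) and Odc1 (277 ± 13.2 in Gli3R and 312 ± 12.5 in control libraries) followed, and their ranges overlapped within each group. Amd1 came next at 33.7 ± 3.70 CPM per kilobase in Gli3R and 42.9 ± 8.42 in control libraries. In Gli3R libraries Sms, at 16.5 ± 1.81 CPM per kilobase, stood below Sat1 (21.3 ± 0.42) and Azin1 (19.5 ± 1.77), while in control libraries it stood above both, at 35.3 ± 0.82 against 23.7 ± 1.63 for Sat1 and 20.2 ± 1.02 for Azin1. The Gli3R libraries of Sms and Azin1 overlapped, and the control libraries of Sms overlapped with neither gene. Lowest were Smox, at 2.17 ± 0.52 CPM per kilobase in Gli3R and 4.28 ± 0.07 in control libraries, and Paox, at 4.11 ± 0.74 in Gli3R and 3.89 ± 0.46 in control libraries (all SD, n = 3). Their control libraries overlapped and their Gli3R libraries did not. The files' annotation may use other transcript lengths, and the levels of Sms, Amd1 and Oaz1 also depend on how reads shared with their copies were counted.

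Genes that feed or use the pathway were read next, from a list of 39 genes, of which 27 were expressed enough to be tested. Of these, 0 rose and 0 fell (quasi-likelihood test of edgeR, Benjamini-Hochberg adjusted p under 0.05), with 4 at an unadjusted p under 0.05, where 0.134% and 6.85% of all tested genes did. DESeq2 called 0, with 5 at an unadjusted p under 0.05, where it called 0.789% and 5.04% of all genes. With litter as a block edgeR called 0, with 6 at an unadjusted p under 0.05, where it called 0.227% and 8.73% of all genes. Their median log2 fold change was -0.09, with a range from -1.12 to 0.27, and 18 of the 27 lay within 0.20 of 0. Eif5a, the protein that takes hypusine from spermidine, was the most abundant at 2829, 2900.5 and 2823 CPM in Gli3R libraries and 2928.5, 2862 and 2859 CPM in control libraries. Its log2 fold change was -0.02 ± 0.06, and Dohh, which completes hypusine, stood at -0.03 ± 0.09. Of the enzymes that make S-adenosylmethionine, Mat2a stood at -0.28 ± 0.12 and Mat2b at 0.02 ± 0.08. Mtap and Adi1, which recover methionine from the by-product of the synthases, stood at -0.19 ± 0.09 and -0.12 ± 0.10, and all 6 salvage genes lay within 0.20 of 0. Oat, which interconverts ornithine and glutamate semialdehyde, stood at 0.08 ± 0.09 and the antizyme gene Oaz2 at 0.17 ± 0.11. Amd2 stood at -0.34 ± 0.13 and was among the 4 at an unadjusted p under 0.05 (quasi-likelihood test of edgeR). Its counts ran close to those of Amd1 in every library, so Amd1 and Amd2 are not read as independent genes.

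The other genes at an unadjusted p under 0.05 were Slc3a2, Arg1 and Arg2, the last 2 named after their values were seen. Slc3a2, the heavy chain of several amino acid transporters, had 120.0, 117 and 119 CPM in Gli3R libraries and 142, 143 and 155 CPM in control libraries (log2 fold change -0.31 ± 0.08; quasi-likelihood test of edgeR, adjusted p = 0.292). Arg1 and Arg2 encode arginases, which make ornithine from arginine. Arg1 had 42.7, 14.6 and 15.3 CPM in Gli3R libraries and 43.2, 69.0 and 49.6 CPM in control libraries. In litter 1 the values were nearly equal, and in the other litters Gli3R was lower. The log2 fold change of Arg1 was -1.12 ± 0.37 (quasi-likelihood test of edgeR, adjusted p = 0.503); without Gli3R replicate 1 it was -1.86 and Arg1 passed (adjusted p = 0.0278), as it did without the filter on low counts (adjusted p = 0.0400). Arg2 had 5.67, 4.61 and 3.84 CPM in Gli3R libraries and 5.94, 8.37 and 9.89 CPM in control libraries (log2 fold change -0.77 ± 0.25; quasi-likelihood test of edgeR, adjusted p = 0.504).

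**Figure D4:**
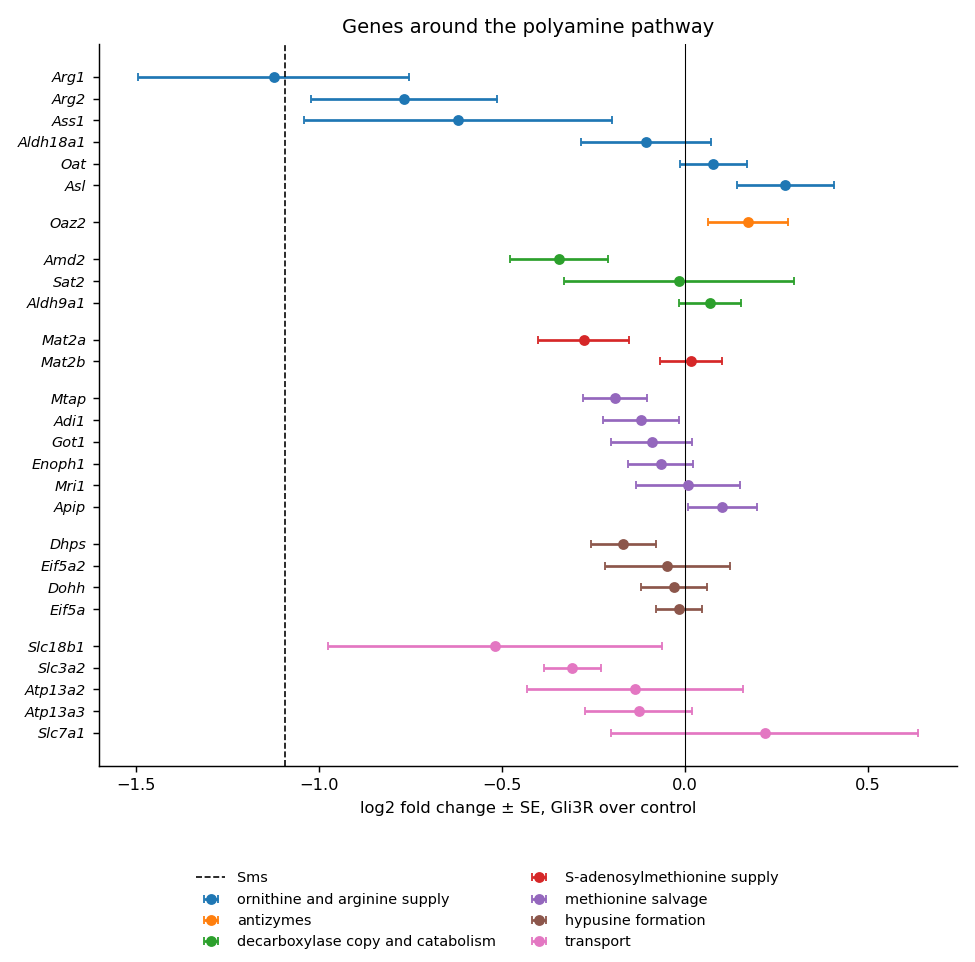
Log2 fold change of Gli3R over control with its SE (horizontal axis) for the 27 tested genes around the polyamine pathway, coloured by role. The dashed line marks Sms at -1.09, which Arg1 alone reaches, with the widest departure from 0 at -1.12 ± 0.37.

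Transcripts that tell male from female cells moved with the groups in the same libraries as Sms. Xist, which is transcribed from the inactive X chromosome of female cells, had 29.9, 22.8 and 25.5 CPM in Gli3R libraries and 44.0, 41.0 and 43.1 CPM in control libraries. The Y-linked genes Ddx3y, Uty, Kdm5d and Eif2s3y summed to 84.0, 90.6 and 99.7 CPM in Gli3R libraries and 63.3, 66.0 and 61.1 CPM in control libraries. Singly, Ddx3y, Uty and Eif2s3y were higher in each Gli3R library than in any control library. Kdm5d overlapped between the groups, at a log2 fold change of 0.37 ± 0.31. The log2 fold change of Xist was -0.70 ± 0.13 (quasi-likelihood test of edgeR, Benjamini-Hochberg adjusted p = 0.113; 0.00604 by DESeq2). Xist was thus lower and the Y-linked sum higher in every Gli3R library. Sms lies on chromosome X, and its reads were compared without knowing the sex of the pooled embryos. Of the 449 tested X-linked genes, 52 (11.6%) were at an unadjusted p under 0.05, against 6.85% of all tested genes, and Sms and Gm14680 alone passed. Their median log2 fold change was -0.01, with a range from -2.18 to 0.91. The part of sex in the Sms difference was not tested.

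The sum of epiblast and ectoderm markers also moved with the groups. The 6 listed (Pou5f1, Sox2, Utf1, Cdh1, Epcam and Otx2) summed to 36.9, 34.1 and 30.2 CPM in Gli3R libraries and 91.5, 58.2 and 42.4 CPM in control libraries, and 0 of the 6 were at 0 in all libraries. Singly, Pou5f1, Cdh1 and Epcam lay wholly lower with Gli3R. Otx2 overlapped between the groups, at a log2 fold change of 0.12 ± 0.21 (SE). Sox2 and Utf1 also overlapped, and were too low to be tested. The 5 extraembryonic ectoderm markers summed to 11.05 to 13.6 CPM in Gli3R and 13.8 to 24.5 CPM in control libraries, with Elf5 at 0 in all; Eomes stands in this list and in the mesoderm list. The sums of visceral endoderm (8.31 to 46.8 CPM in Gli3R and 7.61 to 33.7 CPM in control libraries), definitive endoderm (64.8 to 91.8 CPM in Gli3R and 70.3 to 78.3 CPM in control libraries), primitive blood (159 to 599 CPM in Gli3R and 165 to 387 CPM in control libraries) and dissociation stress markers (57.5 to 114 CPM in Gli3R and 47.9 to 94.5 CPM in control libraries) overlapped between the groups. Cer1 made up most of the definitive endoderm sum, and Cer1, Sox17 and Trh each overlapped between the groups. Foxa2, too low to be tested, had 0 reads in each Gli3R library and 3, 11 and 5 in control replicates 1, 2 and 3. By single gene, 0 of the 34 markers tested passed (quasi-likelihood test of edgeR, Benjamini-Hochberg), with 11 at an unadjusted p under 0.05, where 0.134% and 6.85% of all tested genes did. With litter as a block 3 of 34 passed, against 0.227% of all genes: the streak gene T at a log2 fold change of -1.89 and the epithelial cadherin gene Cdh1 at -3.24 were lower, and the mesodermal ligand gene Bmp4 at 0.69 was higher (adjusted p = 0.0373, 0.0327 and 0.0424). DESeq2 called 4 of 34, against 0.789% of all genes, with Cdh1, Pou5f1 and Epcam lower and Bmp4 higher (adjusted p = 0.000268, 0.0122, 0.0152 and 0.00604). The part of other cell types in the Sms difference was not tested.

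**Figure D5:**
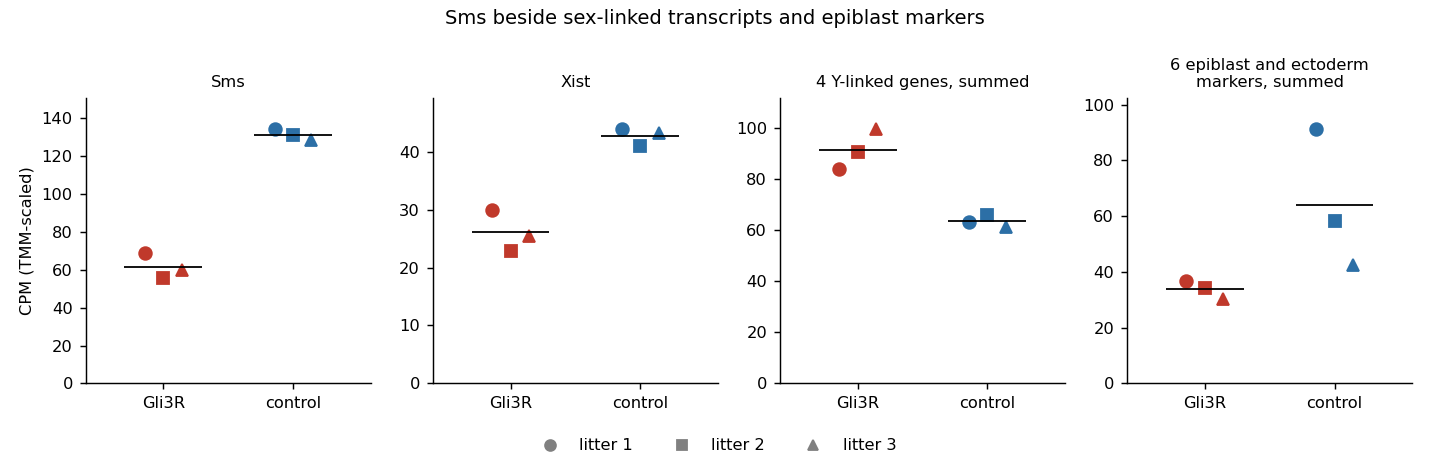
Level in CPM (vertical axes, each starting at 0) of Sms, Xist, the sum of 4 Y-linked genes and the sum of 6 epiblast and ectoderm markers in Gli3R (red) and control (blue) libraries, with the shape of a point giving the litter and the line the group mean. Sms, Xist and the epiblast sum are lower and the Y-linked sum is higher in each Gli3R library than in any control library.

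Over the 6 libraries, 9335 genes with a mean of at least 5 CPM were compared with Sms by Pearson correlation of log2 CPM, as a description only; the 6 libraries hold both groups, so the group difference enters it. Gm14680 came first at 0.996. After it came Fst (the activin antagonist follistatin) at 0.992, Serinc5 at 0.989, the brain-type creatine kinase gene Ckb at 0.988, Ralgps2 at 0.987, Xist at 0.987 and the ephrin gene Efna4 at 0.987. Of the pathway, Smox was closest at 0.972, with 15 genes above it, followed by Odc1 at 0.836, Sat1 at 0.747, Amd1 at 0.638, Srm at 0.325 and Azin1 at 0.299. Paox (-0.307) and Oaz1 (-0.616) ran the other way.

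Genes beside Sms on the X chromosome were read by their order in the RefSeq gene table. On one side, Ptchd1 and Phex had 12 and 4 reads over all 6 libraries and 4930503H13Rik had 0. On the other side, Mbtps2 stood at a log2 fold change of -0.13 ± 0.22 and Yy2 at -0.30 ± 0.19, on 329 and 339 reads, and the pseudogene Gm6568 at 0.82 ± 0.29 on 145 reads. None of these 3 passed (quasi-likelihood test of edgeR, adjusted p = 0.996, 0.906 and 0.549).

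RefSeq gave promoters (250 bases before to 50 after a transcript start) for 7 of the 10 members, with 2 starts for Sms, both on the minus strand of chromosome X in GRCm38.p6. They are shown because Gli3R acts on DNA through Gli motifs, and the letters searched are in capitals. On either strand, GACCACCCA (the Gli consensus) was in neither Sms promoter, nor in any promoter of the other 6, and in 0.253% of all 32851 promoters. Its shorter core ACCACCC was in the first Sms promoter, 150 bases before the start on the opposite strand (as GGGTGGT), and in 4.61% of all promoters. The E-box CACGTG, to which Myc binds, lay 196 bases before the same start and was in 7.15% of all promoters. Counted by gene, a promoter held the core in 5.64% and the E-box in 11.9% of the 9053 tested genes with a promoter. The second Sms promoter, with 74.3% G and C against 50.3% in the first, held none of these letters, and nor did the promoters of Odc1, Amd1, Sat1, Smox, Paox and Oaz1. A match is a description of these letters and not a binding site. Of the Myc genes, Myc stood at a log2 fold change of -0.02 ± 0.12 and Mycn at -0.49 ± 0.14 (quasi-likelihood test of edgeR, adjusted p = 0.996 and 0.379).
Sms start 1, chrX:157492238-157492537: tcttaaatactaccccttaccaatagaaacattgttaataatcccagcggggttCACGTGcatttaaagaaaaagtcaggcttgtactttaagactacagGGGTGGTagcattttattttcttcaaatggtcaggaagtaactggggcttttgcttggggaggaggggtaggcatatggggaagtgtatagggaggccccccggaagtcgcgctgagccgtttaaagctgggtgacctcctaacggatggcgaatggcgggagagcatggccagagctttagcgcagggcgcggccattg
Sms start 2, chrX:157491319-157491618: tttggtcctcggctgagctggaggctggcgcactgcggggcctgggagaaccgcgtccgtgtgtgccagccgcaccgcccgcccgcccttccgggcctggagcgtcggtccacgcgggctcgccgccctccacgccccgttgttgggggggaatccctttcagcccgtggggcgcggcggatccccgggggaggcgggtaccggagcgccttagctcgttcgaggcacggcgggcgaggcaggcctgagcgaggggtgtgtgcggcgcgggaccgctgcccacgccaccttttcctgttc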

How the data were processed

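RNA of sorted mouse mesoderm was measured in 3 Gli3R and 3 control libraries. Per the labels' protocols, Nextera XT libraries were built from SMARTer Ultra Low cDNA. The authors deposited raw counts per Entrez gene, unnormalized, 1 column per library. The submitters' processing notes name the build mm9 and, with no roles, Subread 1.4.6, TopHat2 2.0.14, edgeR, FastQC and featureCounts. For annotation, strand and multi-mapping reads, the setting is not given in the sources used here. The reference used here (GRCm38) differs from that build and served for names, gene order and sequences. Of the Entrez IDs, 96.7% matched it, and 27 symbols turned into dates were restored.

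The members and lists were chosen with earlier results of these data known. In R 4.3.3, edgeR 4.0.16 kept 11913 genes (filterByExpr, minimum count 10), scaled them by TMM and compared Gli3R with control by its two-sided quasi-likelihood test. P-values were adjusted over these genes by Benjamini-Hochberg, with a threshold of 0.05. CPM are TMM-scaled and log2 CPM use a prior count of 2. DESeq2 1.42.0 was an alternative. The steps were checked on simulated data. Transcripts were aligned with Biopython 1.88.

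One count stood for 0.0777 to 0.186 CPM. The 95% intervals of log2 fold changes use the SE of the quasi-likelihood fit, which includes variation between pools. Per the labels, libraries of 1 replicate number share a litter, which pairs them. As a check, their deviations from group means had correlations of 0.168, 0.187 and 0.0755, and libraries of different litters -0.269 to 0.162. Litter as a block was an alternative fit. Replicates are pools from different litters, and the p-values set the difference between the groups against how these pools vary. The main edgeR fit and DESeq2 did not use the pairing by litter.

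All 10 members are named. From the wider list, the rule named the most abundant gene of each of 7 roles, then the 3 most abundant of the genes that came next in their role. Arg1 and Arg2 were named in addition, after their values were seen. The 6 genes most correlated with Sms and its neighbours on the X chromosome are also named.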

Additional observations from a re-analysis of the deposited data

How the results depend on the processing

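The log2 fold change of Sms stayed between -1.19 and -1.03 over every alternative run, and that of Gm14680 between -1.24 and -1.09. The alternatives were litter as a block (paired by replicate number), scaling by library size alone or by the size factors of DESeq2, leaving out the low-count filter or asking for at least 5 CPM in 3 libraries, DESeq2's Wald test, Sms and Gm14680 summed, and leaving out each library in turn. The count of 0 among the 8 members chosen for their role held in each of them. With the replicate block, Sms stood at -1.10 and Smox at -0.98 (quasi-likelihood test of edgeR, adjusted p = 0.146), and the difference in the share of reads given to Gm14680 stayed at -0.77 percentage points (exact permutation test within litters, p = 0.25, the smallest that 3 pairs allow). The block changed no call of a member or of the wider list. Leaving out a library moved that difference between -1.36 and -0.12 percentage points.

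In the wider list, 1 gene (Arg1) passed without the filter on low counts, and 0 or 1 when a library was left out; the cause was not tested. Members near 0 changed sign when a library was left out: Azin1 ranged from -0.0903 to 0.0240, above 0 without Gli3R replicate 3; Paox from -0.0834 to 0.178, below 0 without Gli3R replicate 2 or control replicate 3; and Srm from -0.111 to 0.0380, above 0 without Gli3R replicate 2 or control replicate 1. The count over all genes, 16, was 27 with the replicate block, 108 without the low-count filter (18719 genes tested), 94 with DESeq2, and 0 to 18 when a library was left out. It was 0 without Gli3R replicate 3 (edgeR, with 659 genes at an unadjusted p under 0.05). Depth limits Smox most, with 27 to 101 reads a library.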
